A study of Mus musculus with 10 samples.

Results

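Solute carriers, ion pumps, channels and ABC proteins were examined in M-1 cells, a line from the mouse cortical collecting duct, exposed to dexamethasone. The set holds every clone whose single gene symbol begins with Slc and a family number, Slco, Atp1a or Atp1b, Atp2a to Atp2c, Atp6v, Fxyd, Kcn, Clcn, Clic, Aqp, Scnn, Trpc, Trpm or Trpv, or Abca to Abcg, with 3 genes (Atp1b1, Slc12a2 and Slc4a1) kept apart. It has 217 clones of 176 genes, out of 15600 clones on the array, of which 9866 carry a single symbol. The symbols were matched by name, but the set was chosen with earlier results of these data known. They were divided into 22 clones of amino acid carriers, 34 of cation carriers and pumps, 20 of mitochondrial carriers, 16 of the V-ATPase, 10 of anion carriers, 29 of channels, 19 of ABC proteins and 67 of other solute carriers. A few symbols are partners rather than transporters, such as the scaffold Slc9a3r1 and the noncoding RNA Kcnq1ot1, and were kept in the counts.

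Confluent cells were held in steroid-depleted medium and then given 100 nM dexamethasone, a synthetic glucocorticoid, or steroid-free medium for 3 h. Each array carried a Cy3-labelled and a Cy5-labelled RNA, although only the titles of the treated pairs name a shared array. In 3 treated pairs Cy5 held RNA of dexamethasone-treated cells and Cy3 held control RNA, and in 2 control pairs both dyes held RNA titled control. All groups share the same line, medium and serum, and nothing states whether replicates were separate cultures, so the p-values cover the spread of these samples alone, and that spread may be technical. The titles set the groups, although 5 of the 7 channels titled control have dexamethasone in their treatment field. No dye swap was made and the treated and control pairs were on separate arrays, so treatment, dye and array set cannot be fully told apart.

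Solute carriers move amino acids, sugars, metals, nucleotides and other solutes across membranes, most of them by exchange or by coupling to sodium or protons. The Slc25 family works in the inner mitochondrial membrane, and the V-ATPase, made of a membrane sector V0 and a cytosolic sector V1, acidifies lysosomes and, in the intercalated cells of the collecting duct, the urine. In principal cells of the collecting duct corticosteroids raise sodium uptake, in part through the kinase Sgk1, which phosphorylates the ubiquitin ligase Nedd4-2 and so keeps channels and carriers at the surface.

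Glucocorticoid receptor dimers bind a palindrome of 2 half-sites, and its core letters ACANNNTGT (N is any base; the motif reads alike on both strands) were looked for in the RefSeq promoters, windows of 250 bases before and 50 bases after each annotated start. Of the 176 transporter genes 132 had an entry, and 8 of their 170 promoters (4.71%) held the motif, against 6.85% of all 32851 promoters. Among the 24 genes named by rule, 19 had an entry, and 1 of their 20 promoters held the motif. That promoter belongs to the mitochondrial carrier Slc25a48 and is shown because it is the only match among the genes named by rule; the motif, in capitals, begins 100 bases before the start. The 250 bases before the start lie at chr13:56438105-56438354 on the + strand of GRCm38.p6.
Slc25a48 promoter: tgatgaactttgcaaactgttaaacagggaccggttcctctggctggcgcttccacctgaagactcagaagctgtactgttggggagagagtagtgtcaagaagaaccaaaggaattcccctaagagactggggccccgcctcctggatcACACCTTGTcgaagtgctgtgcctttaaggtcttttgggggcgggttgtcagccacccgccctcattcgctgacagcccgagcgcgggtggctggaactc
The match is a description of letters and not a binding site. The values of Slc25a48 are given with the mitochondrial carriers.

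The control pairs list nearly all spots, whereas the treated arrays list 12.1%, 12.8% and 12.8% of them, those with outlying Cy5/Cy3 ratios. A spot was counted as higher or lower by the sign of its centred log2 ratio, and the listed ratios begin at 0.29, 0.48 and 0.27 in size in treated pairs 1, 2 and 3. The rule by which spots were listed was not stated. A clone without a treated value was read as having either a ratio near the centre or no usable spot. A listed ratio is large because only outlying spots were listed. Each clone has 2 spots per array. Channel medians of spot intensity were 327 to 1076 in control pairs and 355 to 880.5 in treated pairs, and the number of arrays limits the precision. The epithelial keratins of the collecting duct markers were bright: a Krt18 clone read 5921 in Cy3 and 8466.5 in Cy5 of control pair 1. Clones of Cdh1, another of these markers, read only 400.5 and 333 in Cy3 of that pair, below the channel median of 488. Of the 14 collecting duct markers 6 have a named clone (Cdh1, Epcam, Krt7, Krt8, Krt18 and Krt19), and the water channel Aqp2 and the sodium channel Scnn1 subunits are not among them.

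Transporters as a whole were listed at a share close to that of all clones, with somewhat more spots lower than higher. Of their 1302 treated spots 175 (13.4%) were listed. There were 81 higher, a share of 6.22% where all clones had 6.36%, and 94 lower, a share of 7.22% where all clones had 6.22%. Clones with 1 gene symbol, from which the transporters were drawn, had 6.38% higher and 5.89% lower. Treated pair 1 listed 23 higher and 21 lower (all clones, 6.38% and 5.73% of spots). Treated pair 2 had 31 higher and 45 lower (all clones, 6.17% and 6.63%), and treated pair 3 had 27 higher and 28 lower (all clones, 6.53% and 6.3%). Higher spots thus made up 46.3% of the listed transporter spots, 50.6% of all listed spots and 52.0% of those of clones with 1 gene symbol. When the control pairs were reduced to the same share of outlying spots, the transporters had 33 higher and 24 lower in control pair 1 and 27 higher and 14 lower in control pair 2. Higher spots made up 61.2% of these, against 48.0% for all clones and 51.4% for clones with 1 gene symbol, although both dyes held control RNA. No test was run on these counts, because spots of a clone and clones of an array are not independent replicates.

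**Figure D1:**
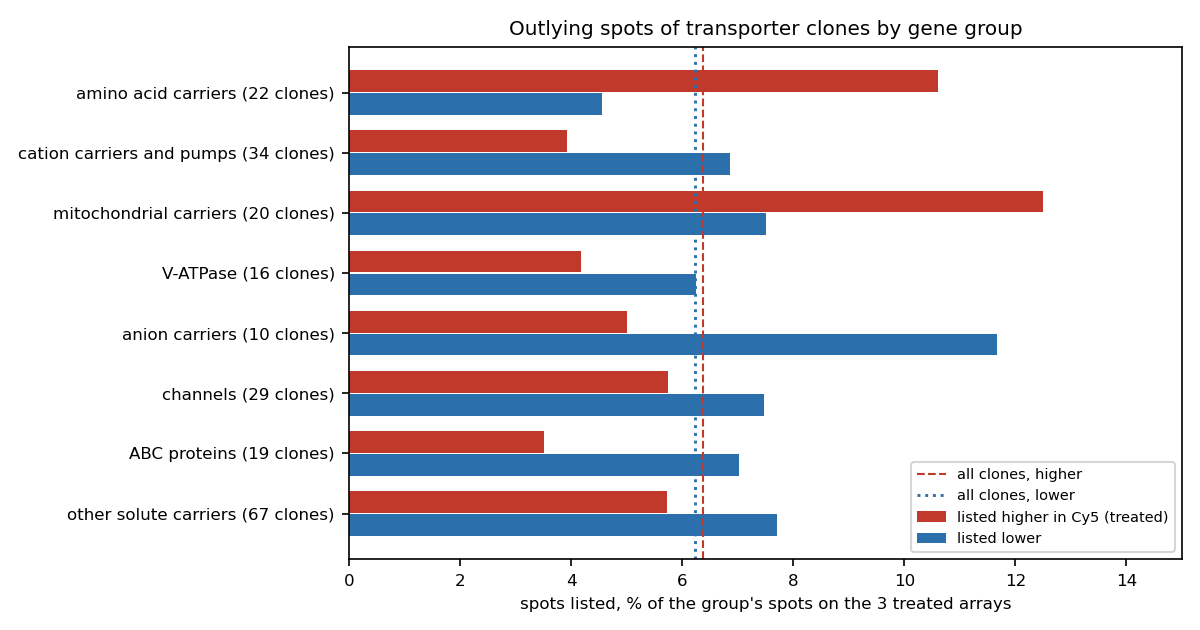
Share of treated spots listed as outlying, in percent of the spots of each transporter group on the 3 treated arrays, separately for spots higher (red) and lower (blue) in Cy5, with the values of all clones as vertical lines. Amino acid carriers (10.6%) and mitochondrial carriers (12.5%) have the longest red bars, and anion carriers (11.7%) the longest blue bar; the bars are counts with no replicate error.

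The 4 groups set side by side differed in the direction of their listed spots, but each rests on few clones and none of the differences was tested. Amino acid carriers had 70% of their listed spots higher, mitochondrial carriers 62.5%, the V-ATPase 40% and cation carriers and pumps 36.4%, where all clones had 50.6%. In the control pairs, reduced to the same share of outlying spots, these groups had 28.6%, 100%, 81.8% and 60%, where all clones had 48.0%. The groups thus lay further apart in the control pairs, where both dyes held control RNA, than on the treated arrays. Amino acid and mitochondrial carriers were on the higher side on every treated array. Cation carriers were not: they had 0 higher and 4 lower spots in treated pair 1, 3 and 8 in treated pair 2, and 5 and 2 in treated pair 3. Without treated replicates 1, 2 and 3 in turn, the share of higher spots was 44.4%, 45.5% and 20% for cation carriers and pumps. For the V-ATPase it was 44.4%, 20% and 50%. Amino acid carriers had 61.5%, 75% and 73.3%, and mitochondrial carriers 58.8%, 64.3% and 64.7%.

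**Figure D2:**
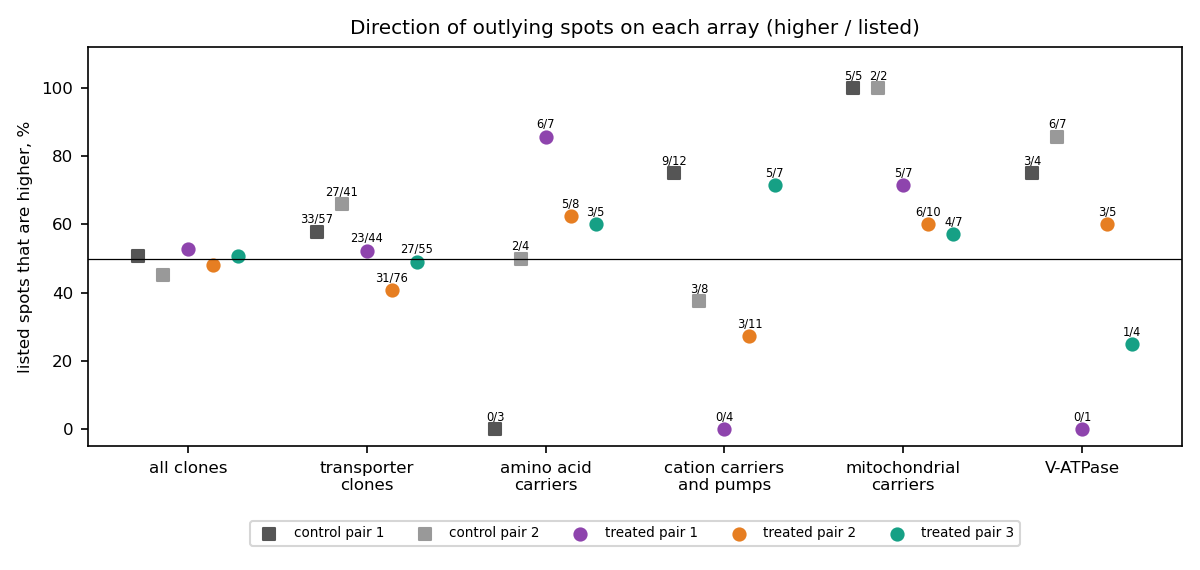
Percent of listed spots that are higher in Cy5, for each of the 5 pairs (squares, control pairs reduced to the same share of outlying spots; circles, treated pairs); the labels give higher spots over listed spots. The circles of the amino acid carriers (6 of 7, 5 of 8 and 3 of 5) and of the mitochondrial carriers (5 of 7, 6 of 10 and 4 of 7) all lie above the line at 50%, but so do the control squares of the mitochondrial carriers (5 of 5 and 2 of 2).

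Carriers placed in the amino acid group by family number, and not by the substrate of each member, had 22 clones of 18 genes. They had 14 spots (10.6%) listed higher and 6 (4.55%) lower, in 11 clones of 10 genes, where all clones had 6.36% and 6.22%. By treated pair there were 6 higher and 1 lower, 5 and 3, and 3 and 2, whereas the control pairs had 0 and 3, and 2 and 2. Slc1a3, Slc1a5, Slc38a2, Slc38a4, Slc43a3, Slc6a13, Slc6a8 and Slc7a8 were not listed on a treated array.

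Slc6a6, the taurine transporter, which lets kidney cells accumulate an organic osmolyte, had log2 ratios of 1.09 and 0.77 in treated pairs 1 and 2 at clone 5954, against 0.20 and 0.43 in the control pairs. Both treated values lay above both control values, and 3 of its 6 treated spots were listed, all higher. By limma it differed by 0.62 ± 0.24 (standard error, adjusted p = 0.205, n = 2 treated and 2 control pairs), and it turned to -0.083 when the spread of each pair was scaled. Another Slc6a6 clone, 5618, was listed in treated pair 3 at 0.55, with control values of -0.28 and -0.09. Slc6a6 was thus 1 of only 2 transporter genes with several listed clones all on one side.

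Slc38a10, a member of the sodium-coupled neutral amino acid family, stood at 0.86 and 0.52 in treated pairs 2 and 3, and its control pairs were at -0.12 and -0.41. The groups did not overlap. Its limma difference of 0.96 (standard error 0.25, adjusted p = 0.187) was the largest in size of the tested clones that are named here, and it was 0.61 with the unlisted duplicate of each listed spot set at 0. Slc3a2, the heavy chain that carries several Slc7 light chains to the surface, was listed at both spots of treated pair 2, at 0.83, against -0.04 and 0.28 in the control pairs. With a value on 1 treated array it did not enter this test. In the limma fit of clones listed on any treated array, where its single value is assumed to vary like the other groups, its difference was 0.71 with a standard error of 0.31 (adjusted p = 0.164). Slc38a1, a glutamine carrier chosen here after its values were seen, was likewise listed at both spots of 1 array, treated pair 1, at 0.56, with control values of -0.27 and -0.19.

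Slc38a9, the lysosomal carrier and arginine sensor that signals to mTORC1, lay on the other side. It had -0.64 and -0.74 in treated pairs 1 and 2 and 0.17 and -0.08 in the control pairs, again without overlap. The limma difference was -0.73 (standard error 0.21, adjusted p = 0.187), but it was 0.69 with the Cy5 channels alone. The members of the Slc38 family were therefore not on one side.

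Cation carriers and pumps, which handle zinc, iron, copper, calcium and monovalent ions, had 34 clones of 29 genes. Of their spots 8 (3.92%) were listed higher and 14 (6.86%) lower, where all clones had 6.36% and 6.22%. The control pairs had 9 and 3, and 3 and 5. The listed spots belong to 15 clones of 15 genes, and 14 genes were not listed, among them the pump subunit Atp1b3, the pump regulators Fxyd3 and Fxyd4, the exchanger Slc8a1 and the cotransporters Slc12a4 and Slc12a5. The metal carriers gave all 5 clones that were listed on 2 treated arrays.

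Slc30a3, a zinc exporter of vesicles, had -0.95 and -0.64 in treated pairs 1 and 2, against -0.05 and -0.24 in the control pairs. Both treated values were below both control values, and the limma difference was -0.66, its standard error 0.23 (adjusted p = 0.193). The zinc importers gave mixed values. Slc39a9 had -0.52 and -0.93 in treated pairs 1 and 2, but its control pairs, at 0.20 and -0.50, reached almost as low. Its limma difference was -0.57, its standard error 0.35 (adjusted p = 0.360), and 0.78 with the Cy5 channels alone. It was -0.22 without control replicate 1 and -0.92 without control replicate 2. Slc39a8, named after its values were seen, had -0.72 and -0.49 in treated pairs 2 and 3 against -0.16 and -0.07, whereas Slc39a10 and Slc39a14 were each listed once on the higher side, at 0.69 and 0.41 in treated pair 3.

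Slc11a2, the divalent metal transporter that imports iron, shows how wide the error of a single clone can be. Its ratios were 0.12 and 0.66 in treated pairs 2 and 3 and 0.33 and -0.82 in the control pairs, so the groups overlapped. In treated pair 2 its duplicate spots were listed on opposite sides. Limma gave a difference of 0.64 and a standard error of 0.50 (adjusted p = 0.495). Without control replicate 1 the difference was 1.21 and without control replicate 2 it was 0.056. Among the pumps, Atp1b2, which encodes a beta subunit of Na,K-ATPase, appeared once at -0.69 in treated pair 2, where its control pairs stood at 0.29 and 0.34. The calcium pumps Atp2a2 and Atp2b1 were each listed once, at -0.68 in treated pair 3 and 0.64 in treated pair 2. Their control pairs stood at -0.06 and -1.01 for Atp2a2, clone 13987, and at 0.47 and 0.08 for Atp2b1. Of the 3 Atp2a2 clones only this 1 was listed. These pump clones were named after their values were seen. With 1 treated value each they entered only the limma fit of clones listed on any treated array, with adjusted p of 0.145 for Atp1b2, 0.807 for Atp2a2 and 0.380 for Atp2b1.

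Mitochondrial carriers, 20 clones of 16 genes, had 20% of their treated spots listed, against 12.6% of all spots. There were 15 higher and 9 lower, in 13 clones of 10 genes. Higher spots also outnumbered lower ones in the control pairs, where 5 and 0, and 2 and 0, were found. Slc25a11, Slc25a17, Slc25a3, Slc25a30, Slc25a32 and Slc25a33 were not listed.

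Slc25a13, the aspartate-glutamate carrier of the malate-aspartate shuttle, had ratios of 0.92 and 0.66 in treated pairs 1 and 3 against -0.05 and 0.13 in the control pairs. Its values did not overlap, and both spots were listed in treated pair 3. Limma gave a difference of 0.75 and a standard error of 0.22 (adjusted p = 0.187), and 0.10 with the Cy5 channels alone. Slc25a39, which imports glutathione, had 0.56 and 0.62 in treated pairs 1 and 2 against 0.20 and -0.05. Its difference of 0.52 (standard error 0.21, limma adjusted p = 0.222) turned to -0.29 with the Cy5 channels alone.

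Slc25a48, whose promoter is printed above, had 0.59 and 0.63 in treated pairs 1 and 3, and 0.30 and 0.09 in the control pairs. In limma the difference was 0.41, its standard error 0.21 (adjusted p = 0.278). This was the least stable of the higher mitochondrial carriers named here, with -0.13 after median centring, -0.024 with scaled spread and -0.14 with the Cy5 channels alone.

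Carriers of the same membrane were also found on the lower side. Slc25a10, the dicarboxylate carrier, had -0.49 and -1.06 in treated pairs 1 and 2, while its control pairs were both close to the centre, at 0.02 each. Its limma difference was -0.79, its standard error 0.28 (adjusted p = 0.193). Slc25a20, which brings acylcarnitines into the matrix for oxidation, had -0.52 and -0.71 in the same treated pairs at clone 6222, against -0.10 and 0.07, a difference of -0.60 (standard error 0.21, limma adjusted p = 0.194). Another Slc25a20 clone, 5895, was listed on the higher side at 0.71 in treated pair 2, the array on which clone 6222 had -0.71. The only transporter clone listed on all 3 treated arrays, Slc25a26, the S-adenosylmethionine carrier, had 0.79, 0.72 and -0.87, so its arrays disagreed in sign. Slc25a36, a pyrimidine nucleotide carrier, was the other gene with several listed clones on one side, at 0.90 in treated pair 2 for clone 15331 and 0.64 in treated pair 3 for clone 2843. Slc25a26 and Slc25a36 were named after their values were seen.

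V-ATPase subunits, 16 clones of 11 genes, had 4 spots (4.17%) listed higher and 6 (6.25%) lower, in 6 clones of 5 genes. Among all clones these shares were 6.36% and 6.22%. The control pairs had 3 and 1, and 6 and 1. No subunit tested passed, and the listed subunits lay on both sides. Atp6v0a1, the a1 subunit of the V0 sector, had 0.25 and 0.63 in treated pairs 2 and 3 against -0.07 and -0.11, with its duplicate spots in treated pair 2 listed on opposite sides. Its limma difference was 0.53 (standard error 0.23, adjusted p = 0.238) and was -0.51 with the Cy5 channels alone. Atp6v0e, also of the V0 sector, was listed once at 0.69 in treated pair 2.

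In the V1 sector, Atp6v1g1, a subunit of its peripheral stalk, had -0.70 and -0.39 in treated pairs 2 and 3 against 0.04 and -0.37, so that the upper treated value almost met the lower control value. In limma the difference was -0.38, its standard error 0.27 (adjusted p = 0.430), and it was -0.18 without control replicate 1 and -0.59 without control replicate 2. Atp6v1b2, the B2 subunit, had -0.56 and -0.47 in treated pairs 1 and 3 and -0.33 and -0.20 in the control pairs. Its difference was -0.24 (standard error 0.20, limma adjusted p = 0.518), turning to 0.26 with scaled spread, to 0.36 with the Cy5 channels alone and to 0.10 with unlisted spots at 0. For the catalytic A subunit Atp6v1a, 1 clone was listed higher at 0.67 in treated pair 2 and another lower at -0.68 in treated pair 3.

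**Figure D3:**
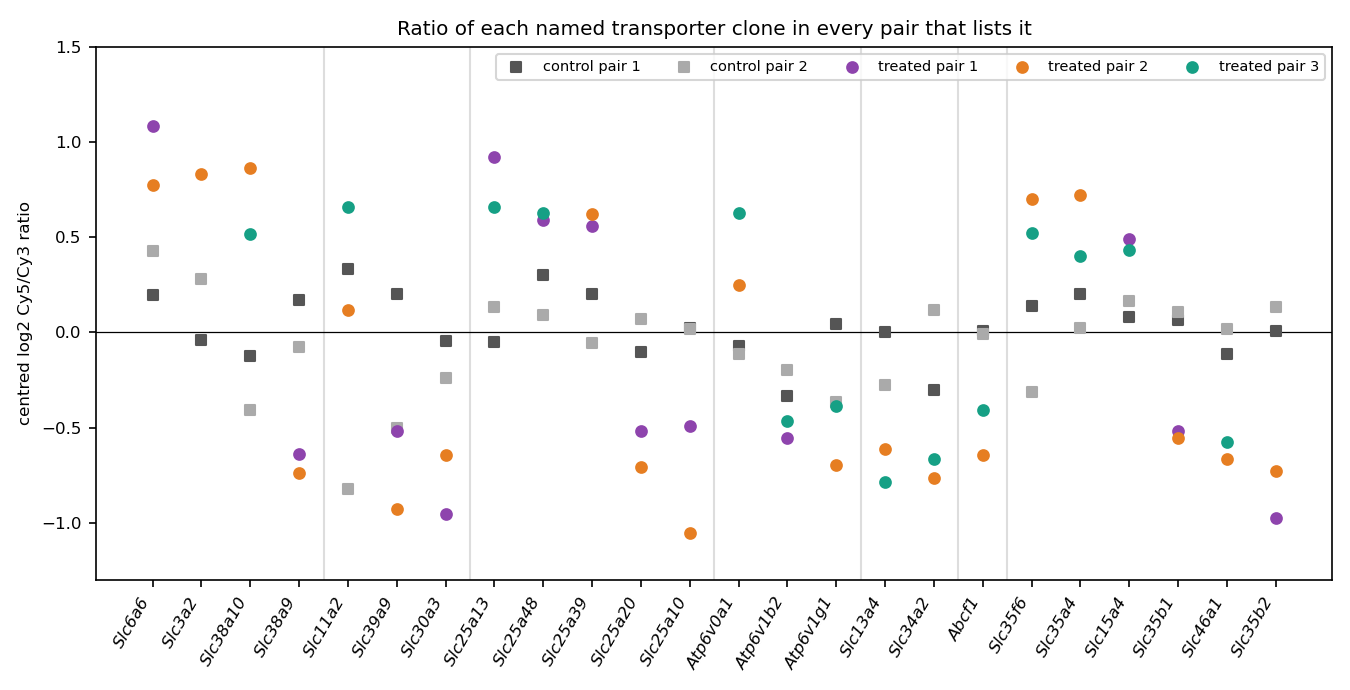
Centred log2 Cy5/Cy3 ratio of each named transporter clone in every pair that gives it a value; squares are control pairs, circles treated pairs, and grey lines divide the gene groups (from left, amino acid, cation, mitochondrial, V-ATPase, anion, ABC and other carriers). Treated circles lie away from 0 because only outlying spots were listed, as with Slc6a6 at 1.09 and Slc25a10 at -1.06, and the 2 control squares of one clone can lie far apart, as for Slc11a2 at 0.33 and -0.82.

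Anion carriers had 3 spots (5%) listed higher and 7 (11.7%) lower over 10 clones, where all clones had 6.36% and 6.22%. Slc34a2, the sodium-phosphate cotransporter IIb, gave 6 of these 10 spots from 3 clones. At clone 3774 it had -0.77 and -0.66 in treated pairs 2 and 3 against -0.30 and 0.12 (limma difference -0.62, standard error 0.25, adjusted p = 0.212). Clone 14387 was listed once, at -0.57 in treated pair 1. Clone 1183 had -2.35 in treated pair 2 and 0.59 in treated pair 3, which differ by more than any control values given here. Slc13a4, a sodium-sulfate cotransporter, had -0.61 and -0.78 in treated pairs 2 and 3, below its control values of 0.00 and -0.28 (difference -0.56, standard error 0.22, limma adjusted p = 0.215).

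Channels had 10 spots (5.75%) listed higher and 13 (7.47%) lower, where all clones had 6.36% and 6.22%. The spots lay in 17 of the 29 clones, and 15 of these clones were listed on a single array. Those with both spots of an array on one side were Clcn3 at -0.59 in treated pair 2, Trpm2 at -0.73 in treated pair 1, and Clcn7 at 0.47 and the calcium-activated potassium channel Kcnn4 at 0.83 in treated pair 3. In the control pairs Clcn3 had -0.55 and 0.15, Clcn7 0.17 and -0.11, and Kcnn4 -0.20 and 0.49. The lower control value of Clcn3 was thus near its treated value. Trpv2, a cation channel, had -1.07 and -0.55 in treated pairs 2 and 3 against 0.18 and -0.37 (limma adjusted p = 0.254). These channels were named after their values were seen. ABC proteins had 4 higher (3.51%) and 8 lower (7.02%) spots, where all clones had 6.36% and 6.22%. Abcf1, which acts in translation rather than transport, had -0.64 and -0.41 in treated pairs 2 and 3 against 0.01 and -0.01 at clone 13695. Its limma difference was -0.52, its standard error 0.21 (adjusted p = 0.214), but 0.56 with the Cy5 channels alone, and its clone 1361 was listed higher at 0.73 in treated pair 1.

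Other solute carriers, 67 clones of 55 genes, had 23 spots (5.72%) listed higher and 31 (7.71%) lower, where all clones had 6.36% and 6.22%. Carriers of the Golgi and endoplasmic reticulum in the Slc35 family gave values on both sides. Slc35b2, which supplies the Golgi with the sulfate donor PAPS, had -0.97 and -0.73 in treated pairs 1 and 2 against 0.01 and 0.13. Its limma difference of -0.92 (standard error 0.22, adjusted p = 0.187) was the lowest of the named clones, and it was -0.93 with the Cy5 channels alone. The intensities behind it were 743 and 782 in Cy3 and 366 and 404 in Cy5 of these treated pairs, so the treated channel was the dimmer of each array.

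Slc35b1, the ATP carrier of the endoplasmic reticulum, had -0.52 and -0.55 in treated pairs 1 and 2 against 0.07 and 0.11 at clone 4570. The limma difference was -0.62 (standard error 0.19, adjusted p = 0.187), yet 1.5 with the Cy5 channels alone, and clone 6857 was listed higher at 0.60 in treated pair 2. Slc35f6 had 0.70 and 0.52 in treated pairs 2 and 3 against 0.14 and -0.32 (difference 0.70, standard error 0.26, limma adjusted p = 0.198). Slc35a4 was at 0.72 and 0.40 in the same treated pairs, with 3 spots listed, against 0.20 and 0.03 (difference 0.45, standard error 0.23, limma adjusted p = 0.289). The Slc35 family thus did not lie on one side.

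Slc46a1, the proton-coupled folate carrier, had -0.67 and -0.58 in treated pairs 2 and 3 against -0.11 and 0.02, a limma difference of -0.58 with a standard error of 0.20 (adjusted p = 0.193). Slc15a4, a lysosomal carrier of peptides and histidine, had 0.49 and 0.44 in treated pairs 1 and 3 against 0.08 and 0.16, a limma difference of 0.34 with a standard error of 0.19 (adjusted p = 0.330). The Slc15a4 difference was 0.076 after median centring, 0.063 with scaled spread and 1.13 with the Cy5 channels alone. Neither pair of groups overlapped, and neither difference passed.

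No transporter clone passed the test of treated against control pairs. By limma, 42 of the 217 clones had the 2 treated values needed, and 0 were called higher and 0 lower at an adjusted p under 0.05, as for all 2131 clones tested (0% higher and 0% lower). Before adjustment 2 transporter clones on the higher and 6 on the lower side had a p under 0.05, together 8 of 42, against 25.9% of all clones. The differences were positive for 17 and negative for 25 of the tested clones, with a median of -0.16, where all tested clones had 0.02. A clone could enter this test only through large listed ratios, so neither the counts nor the median support a shift of the transporters. In simulated sets of 1991 to 2039 clones, listed in the same manner, this test found 10.6% of clones given a log2 change of 1.0 and 27.6% of those given 1.5, with calls in 2 of the 5 sets, so changes of this size would mostly be missed. With every unlisted spot set at 0, so that all 217 clones entered, 0 were called by limma and 12 higher and 18 lower had an unadjusted p under 0.05, together 13.8% against 14.8% of all clones.

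**Figure D4:**
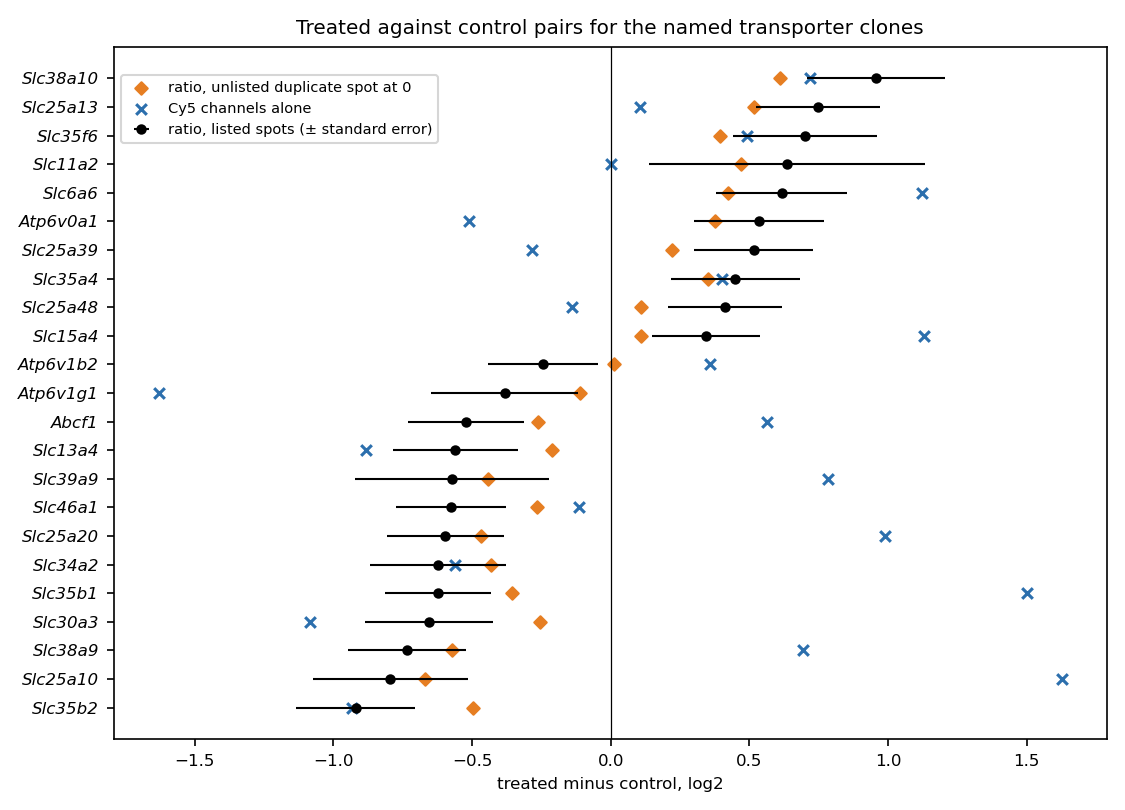
Treated minus control difference (log2) of the 23 named transporter clones that were tested, from limma on the ratios (black, with standard error), with the unlisted duplicate of each listed spot at 0 (orange) and with the Cy5 channels alone (blue crosses). The orange values are smaller in size than the black ones. On the other side of 0 lie 11 of the 23 crosses, among them Slc25a10 at 1.63, Slc35b1 at 1.5 and, almost at 0, Slc11a2 at -2.938e-05.

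The sign of many differences changed when the Cy5 channels were used alone, which compares intensities between arrays. The cause was not tested. The Cy5 channels alone were scaled to their medians over the clones valued in all 5 pairs, not over all spots. By this measure 12 of the 23 named and tested clones kept their sign and 11 took the opposite one. Among the 11, Slc11a2 lay almost at 0, at -2.938e-05. For Slc25a10 the Cy5 channel read 1991 and 1764.5 in treated pairs 1 and 2, above the 584.5 and 1191.5 of the control pairs, and the Cy3 channel of the same treated arrays read 2784 and 3324. Its lower ratio therefore came with both channels brighter on the treated arrays than on the control arrays. Slc35b2, Slc30a3, Slc13a4, Atp6v1g1, Slc34a2 and Slc46a1 were lower, and Slc38a10, Slc6a6, Slc15a4, Slc35f6, Slc35a4 and Slc25a13 higher, by both measures.

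Repeat measurements of a transporter could be compared across arrays, spots and clones. Of the 217 clones 115 (53.0%) were listed on at least 1 treated array, where all clones had 51.8%. Of these, 73 were listed on 1 array, 41 on 2 and 1 on 3, so that 19.4% of the transporter clones were on 2 or more arrays, against 13.7% of all clones. Among the 42 clones listed on 2 or more arrays, 28 (66.7%) had one direction, 10 higher and 18 lower, against 62.7% of all such clones, which had 673 higher and 669 lower. The treated values lay wholly above both control pairs for 9 and wholly below them for 17 of the 42, together 61.9%, where all such clones had 55.6% (607 above and 582 below). Of 158 clone listings on an array 17 (10.8%) had both spots listed, close to the 12.8% of all clones, and 141 rest on 1 spot. Of 11 transporter genes with 2 or more listed clones, 2 had every listed clone on one side by its balance of spots (18.2%), against 279 of 657 genes overall (42.5%). Abcf1, Atp6v1a, Slc15a2, Slc25a20, Slc25a5, Slc34a2, Slc35a5, Slc35b1 and Slc35e1 were the 9 without. The median gap between the control pairs of one clone was 0.22 on the log2 scale for transporters and 0.24 for all clones.

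In the control pairs, where both dyes held control RNA, no transporter showed a dye effect that passed. By limma 0 of 217 clones were called, against 0.321% of all clones, and the smallest adjusted p was 0.0795. Before adjustment 13 clones had a p under 0.05, a share of 5.99% against 8.68% of all clones.

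Regulators and partners of these proteins, a list of 30 genes, had 18 genes measured by 29 clones. They had 13 spots (7.47%) listed higher and 5 (2.87%) lower, where all clones had 6.36% and 6.22%. By treated pair there were 4 higher and 2 lower, 2 and 3, and 7 and 0. Of the 3 clones tested by limma 0 passed. Sgk1 was the only one listed on all 3 treated arrays, at 0.79, 0.62 and 0.89 against -0.04 and 0.14 in the control pairs, a limma difference of 0.71 with a standard error of 0.18 (adjusted p = 0.187). Ywhab, a 14-3-3 protein that binds phosphorylated Nedd4-2, had 0.52 and 0.76 in treated pairs 1 and 2 against -0.43 and 0.24 at clone 9323 (limma adjusted p = 0.235). Nedd4, a ubiquitin ligase related to Nedd4-2, had -0.59 in treated pair 1 and 0.41 in treated pair 3, against 0.53 and 0.66 (limma adjusted p = 0.353). With the Cy5 channels alone all 3 took the opposite sign, with differences of -0.42 for Sgk1, -1.03 for Ywhab and 0.31 for Nedd4. The receptor Nr3c1 and the kinases Wnk1, Pdpk1 and Oxsr1 were not listed.

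Markers of other cell types had few clones. The 5 fibroblast markers had 10 clones, with 3 spots higher and 2 lower, 8.33% of their spots against 12.6% of all clones. Of these Dcn, decorin, was listed higher on 2 treated arrays at clone 6769, at 0.92 and 0.49 in treated pairs 2 and 3 against 0.02 and 0.30, a limma difference of 0.55 with an adjusted p of 0.268. In Cy3 of control pair 2 the fibroblast clones read from 448 to 3044.5, the latter for Dcn, where the channel median was 867. The proximal tubule marker Lrp2 had 1 spot higher and 1 lower among 12 (16.7% listed), and the endothelial marker Pecam1 had none listed. Slc4a1, an intercalated cell marker kept out of the transporter counts, had 2 of 6 spots listed (33.3%), both higher. Collecting duct markers had 4 higher (6.06%) and 0 lower (0%), where all clones had 6.36% and 6.22%. Their higher share was thus close to that of all clones. Control pair 1 listed in the same manner also had 4 higher and 0 lower. The part of these markers in the transporter values was not tested.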

How the data were processed

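Total RNA of M-1 cells was measured on 2-colour spotted cDNA arrays. The authors deposited spot intensities on a linear scale, quantified in Imagene 4.0 per the series' design text; background correction and normalisation, and how treated spots were selected, were not stated in the sources used here. Channels of the treated pairs were joined by the array number in their titles, and those of the control pairs by their control number. No label says that control channels with 1 number share a slide. The 2 channels of each control pair had the same blank spots. Their log2 intensities correlated at r = 0.933 and 0.927, against 0.727 to 0.782 between numbers.

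Log2 Cy5/Cy3 ratios were centred by lowess (statsmodels 0.14.6, span 0.2) in control pairs. Treated pairs were centred on the midpoint of the empty band between higher and lower spots (windows of 150 spots, span 0.3). The 2 spots of a clone were averaged. Gene symbols came from the platform annotation (19732 spots with 1 symbol, 548 with several, 10920 with none). Clones with at least 2 treated and both control values were fitted with limma 3.58.1 in R 4.3.3 (two-sided, Benjamini-Hochberg over all clones fitted, threshold 0.05), and the script was tested on simulated data. To set the control pairs beside the treated arrays, their spots were ranked by ratio over local spread and the top 12.6% were counted.

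The members, gene groups and lists were chosen with earlier results of these data known. Named were the 10 tested transporter clones with the smallest p on each side, any clone with at least 4 of 6 treated spots listed one way and none the other (there was 0), the 3 clones with most listed spots in each of the 4 groups compared, and genes of the list of regulators on 2 or more treated arrays. Alternatives covered centring, scaling, added value, dim spots, clones fitted, baseline, channel, pairing and each replicate left out; 2 alternatives for unlisted spots were chosen after seeing the data. Promoters are from RefSeq, GRCm38.p6.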

Additional observations from a re-analysis of the deposited data

How the results depend on the processing

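The counts of 0 transporter clones called higher and 0 called lower held in every alternative that gave a value, and from 0 to 0 with each replicate left out. The smallest adjusted p of a transporter clone by limma ran from 0.101, with treated pairs tested against 0, to 0.999 with no replicate block, where the 10 channels were fitted separately and the count stayed 0. With the pair number as a random replicate block (correlation 0.746) it was 0.239 and the count 0, so the pairing changed no call. Restricting treated values to clones with both spots listed left no tested transporter clone, so that alternative has no value. Fitting only clones valued in all 5 pairs left 1.

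Signs of single clones were less stable. Median centring moved the median of all tested clones by -0.24 and the Cy5 channels alone by -0.20. The Cy5 channels alone gave opposite signs for Slc25a39 (-0.29), Atp6v0a1 (-0.51), Slc25a48 (-0.14), Slc11a2 (-2.938e-05), Slc38a9 (0.69), Slc35b1 (1.5), Slc25a10 (1.63), Slc25a20 (0.99), Abcf1 (0.56), Slc39a9 (0.78) and Atp6v1b2 (0.36). Scaled spread turned Slc6a6 (-0.083), Slc25a48 (-0.024) and Atp6v1b2 (0.26), and median centring turned Slc25a48 (-0.13). Atp6v1b2 also turned with unlisted spots at 0 (0.10) and with the unlisted duplicate at 0 (0.011). The cause was not tested. No sign turned with 50 added, any replicate left out, or dim spots left out, the last for the 20 of 23 clones that kept a value (not Slc25a13, Slc30a3 and Slc34a2). Sizes moved by over 1.5 times for 11 of 23 clones with median centring, 7 with no normalisation, 14 with scaled spread, 18 with the Cy5 channels alone, 13 with the unlisted duplicate at 0 and 23 with unlisted spots at 0. Leaving out a replicate did so for Slc11a2, Slc39a9 and Atp6v1g1 (each control replicate), Slc34a2 (-0.41 without control replicate 2), Slc25a10 (-0.51) and Slc35a4 (0.29) without treated replicate 2, and Atp6v0a1 (0.34 without treated replicate 3). Without treated replicate 2 Slc39a9 was at -0.37 and Atp6v1g1 at -0.23, and without treated replicate 3 Slc11a2 was at 0.36. Treated values hold outlying spots alone, most rest on 1 spot, and treated and control pairs lie on different arrays, so sizes can be too large and standard errors too small.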

Other observations

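Of the 42 transporter clones listed on 2 or more treated arrays, 14 had ratios of opposite sign on different arrays. The other 28 (66.7%) had one direction, against 62.7% of all such clones. Slc35a5, a member of the nucleotide sugar carrier family, had 1.27 in treated pair 1 and -0.87 in treated pair 2 at clone 3691, with control values of -0.57 and 0.19. Slc6a20a, a carrier of proline and related imino acids, had 1.08 in treated pair 1 and -0.81 in treated pair 3, with control values of -0.12 and -0.28. Slc14a1, a urea transporter, was bright in the control pairs (6998.5 and 29023.5 in Cy3) and was listed at 0.39 in treated pair 1 and -0.33 in treated pair 3. These clones were chosen after their values were seen.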
